A study of Homo sapiens with 4 samples.

Results

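YAP and TAZ, the TEAD transcription factors and a set of their best known target genes were followed from PC9 cells to osimertinib-resistant PC9OR cells. The 10 genes were taken by symbol from a list that no measured value enters, although earlier results of these data were known when it was drawn up: the coactivators *YAP1* and *WWTR1* (which encodes TAZ), the DNA-binding partners *TEAD1* and *TEAD4*, and the targets *CCN1*, *CCN2*, *ANKRD1*, *AMOTL2*, *AJUBA* and *LATS2*. All 10 were found among the 16813 genes of the files, and all 10 passed the filter on low counts that left 13148 genes for testing. PC9 is a human lung adenocarcinoma line with an activating *EGFR* deletion, and PC9OR is a derivative resistant to osimertinib, an EGFR kinase inhibitor. Both lines carry the genotype label WT and were grown in RPMI medium with serum, and no drug is named for the cultures that were sequenced. There were 2 libraries of each line, labelled as biological replicates, with 23201307 and 29062064 expected counts in the PC9 and 31948974 and 32203998 in the PC9OR libraries. PC9OR is a single derived line, so the effects of resistance and of separate culture cannot be told apart, and the p-values measure only the spread between the libraries of each line. RNA was measured in bulk, so fewer cells that express a gene and less RNA per cell cannot be told apart.

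The Hippo pathway is a kinase cascade that holds YAP and TAZ in check. The kinases MST1 and MST2 (encoded by *STK4* and *STK3*) activate LATS1 and LATS2, which phosphorylate YAP and TAZ so that they are kept in the cytoplasm by 14-3-3 proteins or degraded. When the cascade is off, for example in spread cells under tension, YAP and TAZ enter the nucleus, bind the TEAD factors and switch on genes of growth, adhesion and matrix, several of which feed back on the pathway. In lung cancers driven by *EGFR*, YAP activity is known from other work as a route of survival under EGFR inhibitors. Activity is set largely by phosphorylation and location of the proteins, which RNA levels do not show.

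TEAD factors recognise the letters GGAATG on either strand. Upstream sequences are shown for *CCN2* and *ANKRD1*, the targets with the most such letters, and for *YAP1* itself. Each run holds the 250 bases before the start site of the RefSeq table, 5′ to 3′ on the strand of the gene, with GGAATG and the AP-1 letters TGANTCA in capitals, and the positions are exact matches to GRCh37. The windows are *CCN2* at chr6:132272513-132272762 on the minus strand, *ANKRD1* at chr10:92680845-92681094 on the minus strand and *YAP1* at chr11:101980928-101981177 on the plus strand.
CCN2: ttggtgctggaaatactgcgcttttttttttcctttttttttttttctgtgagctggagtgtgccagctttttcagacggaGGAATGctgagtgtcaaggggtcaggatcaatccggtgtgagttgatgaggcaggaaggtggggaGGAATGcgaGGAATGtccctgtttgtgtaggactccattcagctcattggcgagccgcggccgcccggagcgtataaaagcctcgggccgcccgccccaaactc
ANKRD1: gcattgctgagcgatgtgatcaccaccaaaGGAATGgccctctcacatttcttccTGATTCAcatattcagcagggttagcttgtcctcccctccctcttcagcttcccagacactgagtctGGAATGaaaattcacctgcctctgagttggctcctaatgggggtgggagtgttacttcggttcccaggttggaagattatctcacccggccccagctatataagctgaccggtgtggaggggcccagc
YAP1: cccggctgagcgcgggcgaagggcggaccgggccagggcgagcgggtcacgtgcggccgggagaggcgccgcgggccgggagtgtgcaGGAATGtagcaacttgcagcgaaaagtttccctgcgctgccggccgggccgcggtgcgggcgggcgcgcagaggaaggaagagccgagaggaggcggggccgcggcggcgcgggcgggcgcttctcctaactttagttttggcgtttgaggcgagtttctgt
In *CCN2* the letters began 169, 104 and 95 bases before the start site, all on the strand shown. In *ANKRD1* they began 220 and 128 bases before it, with TGANTCA in between, at 195 bases, and in *YAP1* they stood once, at 162 bases. The table held 10 promoters for 7 of the 10 genes, and *CCN1*, *TEAD1* and *TEAD4* had no entry. Windows of 300 bases, of which 50 follow the start site, were searched on both strands, and no match of one motif overlapped the other. GGAATG was found in 6 of the 10 promoters, 1 of each of *YAP1*, *CCN2*, *ANKRD1*, *AMOTL2*, *AJUBA* and *LATS2*, and in neither promoter of *WWTR1*. Of all 35116 promoters in the table, 14% held it at least once, 1.37% at least 2 times, as *ANKRD1* does, and 0.128% at least 3 times, as *CCN2* does. TGANTCA was found in 1 of the 10, that of *ANKRD1*, and in 7.71% of all promoters. A match describes the letters and is not evidence of binding.

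In PC9OR cells both coactivators, *TEAD1*, *CCN1* and *LATS2* were lower and *ANKRD1* was higher. A gene was called at a Benjamini-Hochberg adjusted p under 0.05 over all genes tested (edgeR's quasi-likelihood test on expected counts, which are estimated reads per gene). By this rule 5 of the 10 genes fell, against 20.8% of all tested genes, and 1 of 10 rose, against 15.6%. With either PC9OR library left out, *YAP1*, *WWTR1*, *CCN1* and *ANKRD1* no longer passed the edgeR test, while *TEAD1* and *LATS2* still did. PC9OR then had 1 library, so log2 fold changes are given here, without replicate 1 and without replicate 2 in turn. They were -0.71 and -0.64 for *YAP1*, -0.93 and -0.74 for *WWTR1*, -0.81 and -0.81 for *CCN1*, and 1.17 and 1.16 for *ANKRD1*. With a change of more than 2-fold in addition, 2 fell (*TEAD1* and *LATS2*), against 11.6% of all tested genes, and 1 rose (*ANKRD1*), against 6.13%. The stricter threshold that the study used was more than 2-fold and an adjusted p (there a q value) under 0.001. It left 0 of all tested genes in either direction in the main edgeR fit. With an unadjusted p under 0.05 and the same fold limit, 967 genes passed upwards and 1718 downwards. The smallest adjusted p from that fit was 0.00155. The study applied its limits to q values of DEGseq, which was not run here, and did report genes higher in PC9OR cells. The same threshold also left 0 genes with limma on FPKM, but 497 higher and 1238 lower genes with the Wald test of DESeq2, *ANKRD1*, *TEAD1* and *LATS2* among them. In CPM (counts scaled to library size after TMM normalization) both PC9OR libraries lay below both PC9 libraries for 7 genes, against 38.2% of all tested genes, and above them for 2, against 39.6%. The median log2 fold change of the 10 genes was -0.75, beside 0.01 for all tested genes.

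The difference between the lines followed transcript length across the genome. That bears on these genes because their median length was 4585 bases, beside 2989 bases for all tested genes. Of the 10, 6 are longer than the median tested gene, which is close to the even split that a median sets. In the bin of longest transcripts, with a median of 9718 bases, the median log2 fold change was -0.70, and in the bin of shortest, at 716 bases, it was 0.64. Genes are not independent replicates, but as a description over 12294 of them the rank correlation of the log2 fold change with length was -0.37, that of the difference between the PC9 replicates was -0.42 and that of the difference between the PC9OR replicates was 0.0024. Each of the 10 genes is therefore also given with an offset that removes the smooth trend of its library with length, and so are the counts of the Hippo, SRF and MRTF, AP-1 and epithelial lists. With these offsets the same 5 genes fell, against 20.9% of all tested genes, and the same gene rose, against 17.1%, and the median log2 fold change of the 10 genes was -0.52. A change that is truly shared by long transcripts would be removed as well. How far length accounts for the differences was not tested.

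**Figure D1:**
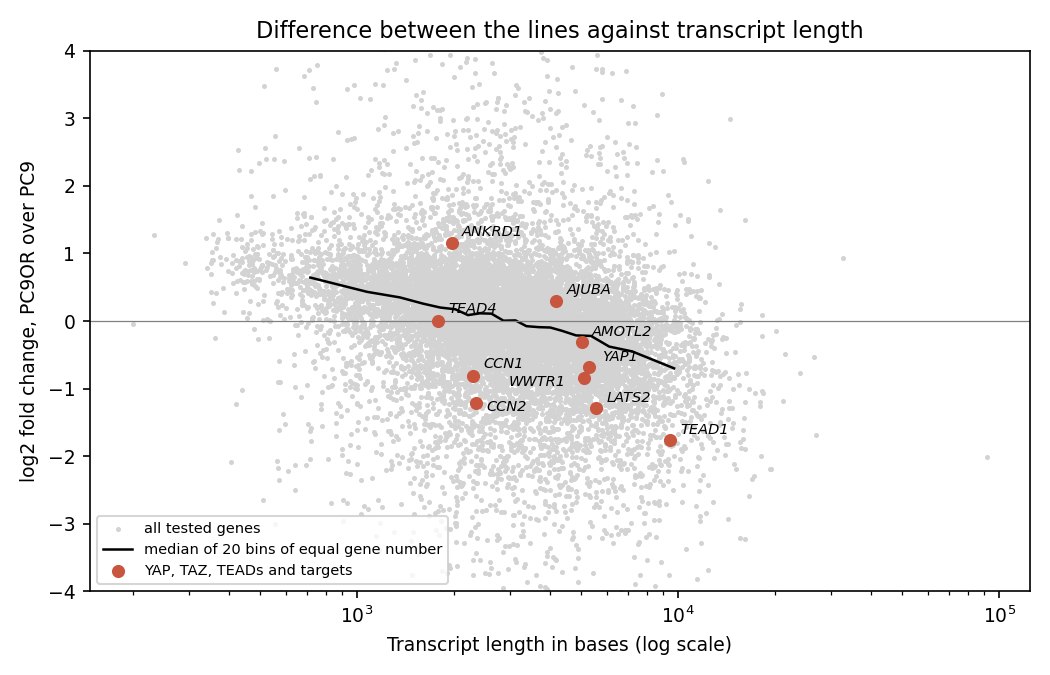
Log2 fold change of PC9OR over PC9 (y axis, from edgeR) against transcript length in bases (x axis, log scale) for all tested genes in grey, with the median of 20 bins of equal gene number as a line and the 10 named genes as red points; 230 genes beyond 4 on the y axis are not drawn. *TEAD1*, the longest of the 10, lies at -1.76, below the -0.70 of the longest bin, and *CCN1* and *CCN2* lie below the line among shorter transcripts.

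*YAP1* (Entrez gene 10413, chr11:101981178-102104155 of GRCh37, plus strand) encodes the coactivator YAP. Its level was 39.0 and 39.0 FPKM (reads scaled to transcript length and library size) in PC9 replicates 1 and 2, and 24.33 and 23.03 FPKM in PC9OR replicates 1 and 2. Both PC9OR libraries lay below both PC9 libraries, and the gap was far wider than the spread within either line. From 289 ± 3.15 CPM in PC9 (SD, n = 2) to 180 ± 5.67 CPM in PC9OR cells (SD, n = 2), *YAP1* fell by 0.68 in log2 units (SE, standard error, 0.102 and adjusted p = 0.0112), which is 1.61-fold. With the length offsets it fell by 0.44 (adjusted p = 0.0275). *YAP1* was the second most abundant of the 10 genes per length, after *CCN1*, in all 4 libraries.

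*WWTR1* (Entrez gene 25937, chr3:149235022-149454501, minus strand) encodes TAZ, the paralogue of YAP. It reached 11.3 and 9.40 FPKM in the PC9 and 6.02 and 5.22 FPKM in the PC9OR libraries, so the lines did not overlap. *WWTR1* fell by 0.84 in log2 units (SE 0.142, adjusted p = 0.0140), and by 0.61 with the length offsets (adjusted p = 0.0136). Within a library *YAP1* exceeded *WWTR1* in FPKM by 3.46 and 4.15 times in PC9 and by 4.04 and 4.41 times in PC9OR replicates 1 and 2. These ratios overlapped between the lines, while both genes were lower in PC9OR cells.

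**Figure D2:**
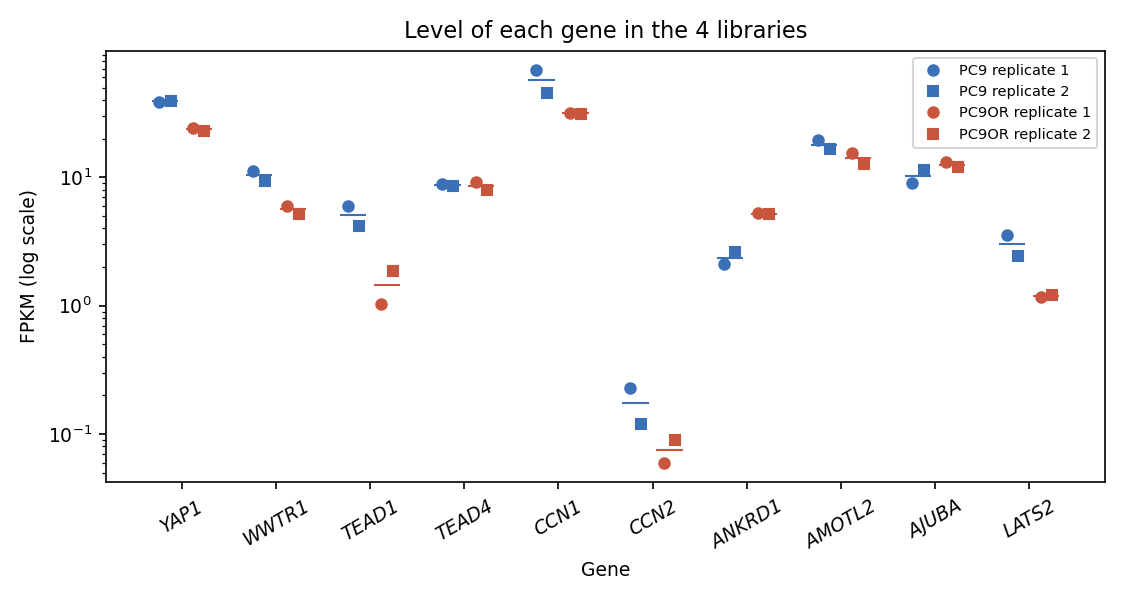
FPKM (y axis, log scale) of the 10 genes (x axis) in PC9 (blue) and PC9OR (red) libraries, with circles for replicate 1, squares for replicate 2 and a short line for the mean of each line. The PC9 and PC9OR points of *YAP1*, *WWTR1*, *TEAD1*, *CCN1* and *LATS2* are separated downwards and those of *ANKRD1* upwards, *TEAD4* overlaps, and *CCN2* lies under 1 FPKM throughout.

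Of the DNA-binding partners, *TEAD1* (Entrez gene 7003, chr11:12695968-12966284, plus strand) had the largest log2 fold change of the 10 genes without length offsets, and with them the largest of those called. Its level was 5.96 and 4.17 FPKM in PC9 replicates 1 and 2, and 1.03 and 1.86 FPKM in PC9OR replicates 1 and 2. Both PC9OR libraries were below both PC9 libraries, although the PC9OR replicates stood 0.86 apart on the log2 CPM scale, the widest gap among the 10 genes within that line. *TEAD1* fell by 1.76 in log2 units (SE 0.338, adjusted p = 0.0185), or 3.40-fold. At 9416 bases it is the longest transcript of the 10, and with the length offsets it fell by 1.14 (adjusted p = 0.0235). Its log2 fold change was -1.38 without PC9OR replicate 1 and -2.27 without PC9OR replicate 2, and it was called in both cases (adjusted p = 0.0208 and 0.00246).

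*TEAD4* (Entrez gene 7004, chr12:3068496-3149842, plus strand) was listed at 8.92 and 8.60 FPKM in PC9 and 9.24 and 7.98 FPKM in PC9OR cells. The PC9OR values lay on both sides of the PC9 values, and the log2 fold change came to -0.0013 (SE 0.139, adjusted p = 0.995). Its sign changed without a filter on low counts and when PC9 replicate 1 or PC9OR replicate 2 was left out, and with the length offsets the value was -0.24 (adjusted p = 0.222).

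The other 2 family members did not pass the test. *TEAD2* had 6.78 and 5.50 FPKM in PC9 and 4.80 and 5.77 FPKM in PC9OR cells, and *TEAD3* had 7.43 and 4.37 against 3.94 and 3.64 FPKM. *TEAD3* thus had a log2 fold change of -0.60 (SE 0.265, adjusted p = 0.130), with PC9 replicates that lay further apart than PC9 replicate 2 and the PC9OR libraries. Of the summed FPKM of the 4 TEAD genes, *TEAD1* made up 20.5% and 18.4% in PC9 and 5.42% and 9.66% in PC9OR replicates 1 and 2. The share of *TEAD4* was 30.7% and 38.0% in PC9 and 48.6% and 41.5% in PC9OR cells. *TEAD4* was the largest part in all 4 libraries, and *TEAD1* was the smallest in all 4 libraries, by a wider margin in PC9OR cells. These shares carry no length offsets, and *TEAD1*, with 9416 bases, is longer than *TEAD2* (2168), *TEAD3* (2991) and *TEAD4* (1785). With the offsets the log2 fold changes were -1.14, -0.35, -0.61 and -0.24 for *TEAD1* to *TEAD4*. How far length accounts for the shift in shares was not tested.

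**Figure D3:**
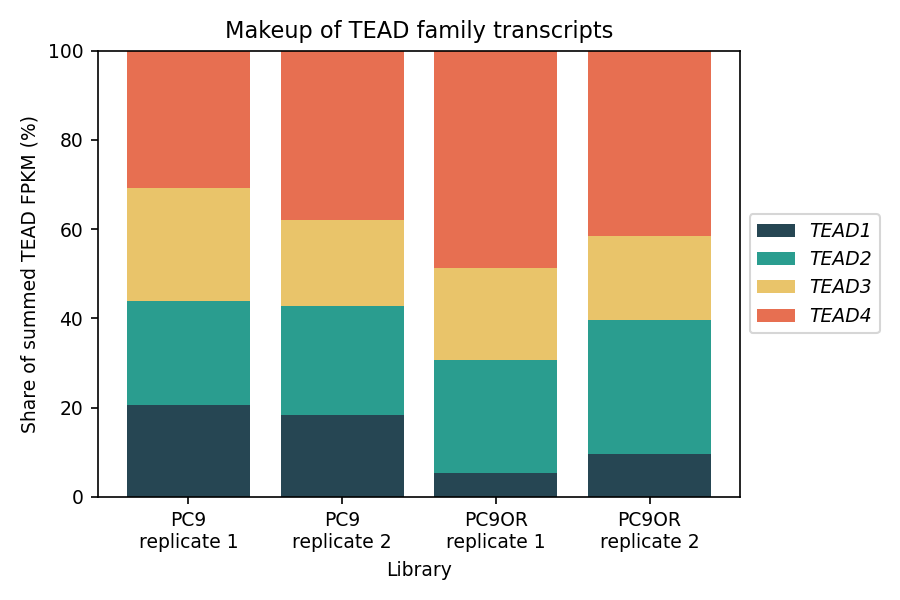
Share of the summed FPKM of *TEAD1* to *TEAD4* in percent (y axis) in each library (x axis), as stacked bars. The *TEAD1* part at the bottom is 20.5% and 18.4% of the PC9 bars and 5.42% and 9.66% of the PC9OR bars. The shares carry no length offsets.

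The targets did not move as a block. *CCN1* (formerly *CYR61*, Entrez gene 3491, chr1:86046444-86050272, plus strand) encodes a secreted matricellular protein that binds integrins and is an immediate target of YAP and TEAD. Its level was 68.2 and 45.6 FPKM in PC9 replicates 1 and 2, and 31.9 and 31.2 FPKM in PC9OR replicates 1 and 2. The PC9OR libraries were nearly equal and below both PC9 libraries, while the PC9 replicates differed by 0.55 on the log2 CPM scale. *CCN1* fell by 0.82 in log2 units (SE 0.200, adjusted p = 0.0325), which is 1.76-fold. At 2295 bases it is shorter than the median tested gene, and with the length offsets it fell by 0.95 (adjusted p = 0.0184). The size of the change rested on which PC9 library was used: the log2 fold change was -0.53 without PC9 replicate 1 and -1.08 without PC9 replicate 2.

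*CCN2* (connective tissue growth factor, Entrez gene 1490, chr6:132269316-132272512, minus strand) is the other secreted CCN protein used as a readout of YAP. It was near the limit of detection, with 17, 11, 6 and 9 reads in PC9 replicates 1 and 2 and PC9OR replicates 1 and 2, or 0.23, 0.12, 0.06 and 0.09 FPKM. The exact Poisson 95% intervals of these counts, which cover counting error only, ran on the CPM scale from 0.422 to 1.16 and from 0.190 to 0.682 in PC9, and from 0.0687 to 0.408 and from 0.129 to 0.534 in PC9OR cells. Those of PC9 replicate 1 and PC9OR replicate 1 did not overlap, and every other pair across the lines did. Its log2 fold change was -1.21 (SE 0.617, adjusted p = 0.173), or -1.33 with the length offsets (adjusted p = 0.163), and did not pass the test. The value depended on single libraries and on the scale, at -0.70 without PC9 replicate 1, -1.63 without PC9 replicate 2, -0.13 with limma on log2(FPKM + 1) and -0.63 on log2(FPKM + 0.1), and it missed the threshold in each of these. In PC9 cells *CCN1* exceeded *CCN2* in FPKM by 296 and 380 times and in PC9OR cells by 532 and 347 times, so the 2 genes differed widely in level in both lines.

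*ANKRD1* (Entrez gene 27063, chr10:92671853-92680844, minus strand) encodes an ankyrin repeat protein of the nucleus and sarcomere and is a further standard YAP target. Its level was 2.13 and 2.61 FPKM in PC9 and 5.24 and 5.18 FPKM in PC9OR cells. The PC9OR values lay above both PC9 values, and *ANKRD1* was the single called gene among the 10 that rose. From 6.28 ± 0.977 CPM (SD, n = 2) to 14.1 ± 0.0810 CPM (SD, n = 2), it rose by 1.16 in log2 units (SE 0.198, adjusted p = 0.0144), or 2.24-fold. With the length offsets the log2 fold change was 0.97 (adjusted p = 0.0127). *CCN1* exceeded *ANKRD1* by 32.01 and 17.5 times in FPKM in PC9, and by 6.09 and 6.03 times in PC9OR cells. The ratio of these targets, taken within a library and thus free of its scaling, did not overlap between the lines.

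The remaining targets act back on the pathway. *LATS2* (Entrez gene 26524, chr13:21547175-21635725, minus strand), the kinase that phosphorylates YAP and TAZ and is itself induced by them, had 3.55 and 2.45 FPKM in PC9 and 1.17 and 1.22 FPKM in PC9OR cells. Both PC9OR libraries were below both PC9 libraries. *LATS2* fell by 1.29 in log2 units (SE 0.217, adjusted p = 0.0141), or 2.44-fold, and by 1 with the length offsets (adjusted p = 0.01). It and *TEAD1* were the 2 called genes of the 10 whose call held with each library left out in turn.

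*AMOTL2* (Entrez gene 51421, chr3:134074189-134094321, minus strand), an angiomotin that sequesters YAP at junctions, had 19.4 and 16.6 FPKM in PC9 and 15.5 and 12.8 FPKM in PC9OR cells. The lines did not overlap, but the log2 fold change of -0.31 (SE 0.142, adjusted p = 0.136) did not pass the test, and with the length offsets it was -0.09. *AJUBA* (Entrez gene 84962, chr14:23440386-23451760, minus strand), a LIM protein that binds and inhibits LATS kinases, had 9.06 and 11.5 FPKM in PC9 and 13.1 and 12 FPKM in PC9OR cells. Its PC9OR values were above its PC9 values by a margin smaller than the gap between the PC9 replicates. Its log2 fold change stood at 0.30 (SE 0.158, adjusted p = 0.184), and 0.43 with the length offsets (adjusted p = 0.0992). Without PC9 replicate 2 both genes passed the test, *AMOTL2* at -0.42 (adjusted p = 0.0484) and *AJUBA* at 0.48 (adjusted p = 0.0118). With any other library left out neither passed it, and the values ran from -0.44 to -0.18 for *AMOTL2* and from 0.12 to 0.36 for *AJUBA*. The isoform-weighted transcript length of *AJUBA* was 4197 and 4185 bases in PC9 and 4138 and 4140 bases in PC9OR cells, a small shift in estimated isoform use that was not tested.

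**Figure D4:**
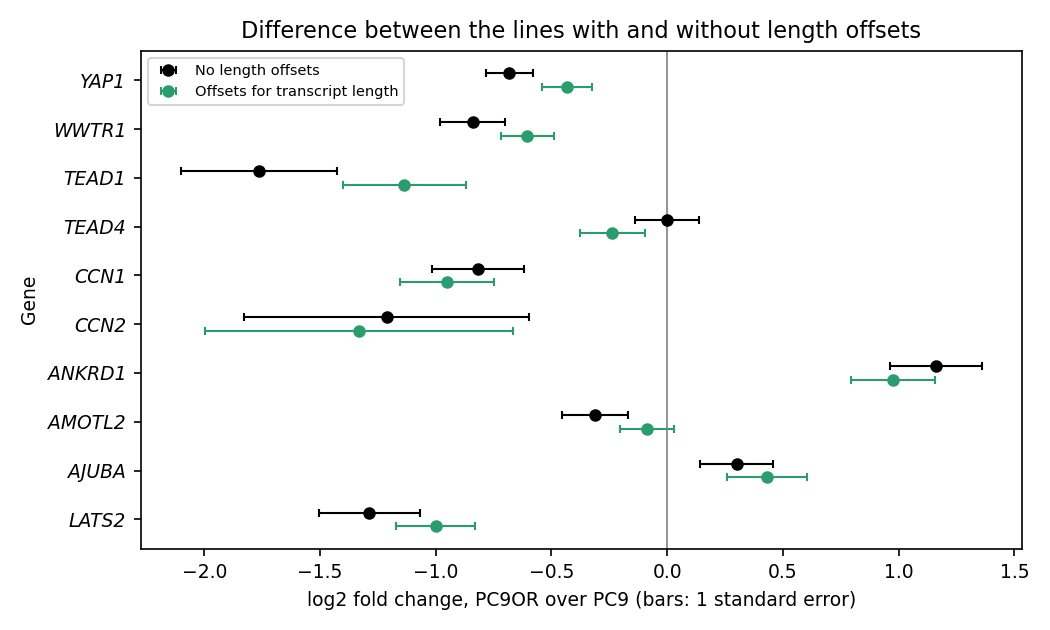
Log2 fold change of PC9OR over PC9 (x axis) for the 10 genes (y axis), from edgeR without (black) and with (green) offsets for transcript length; bars are 1 standard error. *TEAD1* moves from -1.76 to -1.14 and *LATS2* from -1.29 to -1, while *CCN1* and *ANKRD1* stay on opposite sides of 0 in both fits.

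By mean FPKM the order of the 10 genes differed between the lines. In PC9 cells it was *CCN1* (56.9), *YAP1* (39.0), *AMOTL2* (17.99), *WWTR1* (10.3), *AJUBA* (10.3), *TEAD4* (8.76), *TEAD1* (5.07), *LATS2* (3), *ANKRD1* (2.37) and *CCN2* (0.175). The libraries of neighbours in this order overlapped for *WWTR1* and *AJUBA* and for *LATS2* and *ANKRD1*. In PC9OR cells it was *CCN1* (31.6), *YAP1* (23.7), *AMOTL2* (14.1), *AJUBA* (12.5), *TEAD4* (8.61), *WWTR1* (5.62), *ANKRD1* (5.21), *TEAD1* (1.45), *LATS2* (1.195) and *CCN2* (0.075). Here the libraries overlapped for *AMOTL2* and *AJUBA*, for *WWTR1* and *ANKRD1* and for *TEAD1* and *LATS2*. *ANKRD1* thus stood below *TEAD1* and *LATS2* in PC9 and above them in PC9OR cells, while *CCN1* and *YAP1* led and *CCN2* came last in both. The profiles most alike, by the root mean square difference of centred log2(CPM + 0.5) over the 4 libraries, were those of *YAP1* and *WWTR1*, at 0.12. *CCN1* lay nearest to *WWTR1*, at 0.13. The likeness of *CCN2* is not given, since the 0.5 added outweighs most of its CPM values. *ANKRD1* was farthest from its nearest neighbour, *AJUBA*, at 0.40, followed by *TEAD1*, at 0.39 from *LATS2*. Genes on the opposite strand overlap exons of *YAP1*, *WWTR1* (*WWTR1-AS1*) and *CCN2* (*LINC01013*), a same-strand gene overlaps exons of *AMOTL2* (*RPL39P5*, a pseudogene) and another those of *AJUBA*, and whether the counting used strand is not given in the sources used here.

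The rest of the Hippo pathway was read from lists of 57 further genes, of which 54 were tested, 22 fell and 5 rose, with a median log2 fold change of -0.41. With the length offsets 21 fell and 8 rose, and the median was -0.17. The counts of this and the following lists stand beside shares of 20.8% lower and 15.6% higher among all tested genes, or 20.9% and 17.1% with the offsets. Of the 6 genes of the core kinase cassette 4 fell and 1 rose (20.8% and 15.6% of all tested genes). The fallen genes were *LATS1* (log2 fold change -1.20, adjusted p = 0.0127), *STK4* (-0.94, 0.00954), *SAV1*, the scaffold of the MST kinases (-0.80, 0.0150), and *MOB1B*, a LATS cofactor (-0.49, 0.0347). The other cofactor gene *MOB1A*, the most abundant of the cassette, rose by 0.44 (adjusted p = 0.0377), with 48.1 and 52.8 FPKM in PC9 and 67.9 and 66.0 FPKM in PC9OR cells. *STK3*, the last of the cassette, had a log2 fold change of 0.10 (adjusted p = 0.478). With the length offsets *LATS1* (-0.76), *STK4* (-0.58) and *SAV1* (-0.79) were still called lower, *MOB1A* was still called higher (0.65, adjusted p = 0.0154), and *MOB1B* was at -0.11 (adjusted p = 0.552).

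Of 22 upstream regulators 10 fell and 1 rose (20.8% and 15.6% of all tested genes). *FAT1*, a giant protocadherin, fell by 1.58 (adjusted p = 0.00639), *PTPN14*, a phosphatase that binds YAP and is also a YAP target, by 1.54 (adjusted p = 0.00902), and the angiomotin *AMOTL1* by 1.23 (adjusted p = 0.00586). With the length offsets *FAT1*, with 14764 bases, was at -0.56 (adjusted p = 0.0121) and *PTPN14*, with 13443 bases, at -0.60 (adjusted p = 0.0123). *AMOTL1* had 54.9 and 46.3 FPKM in PC9 and 21.4 and 20.7 FPKM in PC9OR cells. Its relative *AMOT* rose by 1.13 (adjusted p = 0.00831), from 5.61 and 4.54 to 10.5 and 11.1 FPKM, so the angiomotin genes went in different directions, with and without the length offsets (*AMOT* at 1.53 and *AMOTL1* at -0.64 with them). The abundant kinase gene *MAP4K4* was at -0.41 (adjusted p = 0.0599). Several of these transcripts are very long, and with the offsets 7 of the 22 fell and 4 rose (20.9% and 17.1% of all tested genes). *STRN*, a scaffold of the phosphatase complex that restrains MST kinases, with a transcript of 14110 bases, was called lower without the offsets (-0.47, adjusted p = 0.0356) and higher with them (0.50, adjusted p = 0.0209), and was named after its values were seen.

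**Figure D5:**
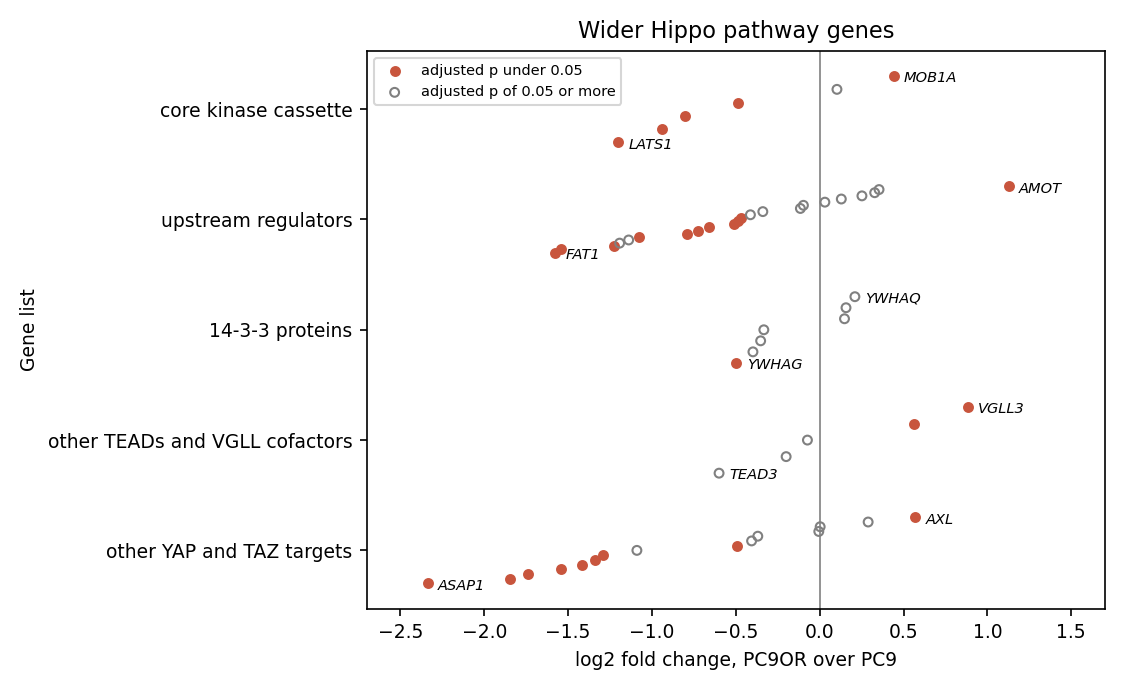
Log2 fold change of PC9OR over PC9 (x axis, edgeR without length offsets) for the tested genes of 5 Hippo lists (y axis), filled where the adjusted p is under 0.05 and open otherwise, with the lowest and the highest gene of each list named. Filled points lie mostly on the left, from *ASAP1* at -2.34, and *AMOT*, at 1.13, is the highest.

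Of 7 genes of the 14-3-3 family, which anchor phosphorylated YAP, *YWHAG* fell, by 0.50 (adjusted p = 0.0219), and the others did not pass the test. Of all tested genes 20.8% fell and 15.6% rose. With the length offsets 4 of 7 fell and 0 rose (20.9% and 17.1% of all tested genes). The most abundant were *YWHAZ* (log2 fold change -0.35, adjusted p = 0.0523) and *YWHAE* (0.15, adjusted p = 0.377). Among *TEAD2*, *TEAD3* and the VGLL cofactors, which compete with YAP for TEAD, 0 of 5 tested genes fell and 2 rose (20.8% and 15.6% of all tested genes), or 0 and 1 with the length offsets. *VGLL1* rose by 0.56 (adjusted p = 0.0381), from 23.2 and 18.8 to 29.2 and 31.9 FPKM, and with the offsets it was at 0.15 (adjusted p = 0.575). *VGLL3* rose by 0.88 in counts (adjusted p = 0.0407), but its FPKM values of 0.76 and 0.59 in PC9 and 0.81 and 0.67 in PC9OR cells overlapped, since its estimated transcript length was 4194 and 6785 bases in PC9 and 8375 and 8907 bases in PC9OR libraries. *VGLL4*, the next in abundance after *VGLL1*, was at -0.07 (adjusted p = 0.644).

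A signature of further YAP and TAZ targets held 17 genes, of which 15 were tested (*PTPN14*, already counted among the upstream regulators, is 1 of them), 8 fell and 1 rose (20.8% and 15.6% of all tested genes), with a median log2 fold change of -1.09. *ASAP1*, a regulator of ARF proteins and focal adhesions, was at 22.9 and 12.5 FPKM in PC9 and 3.33 and 3.44 FPKM in PC9OR cells. Its PC9 replicates differed, yet both lay well above the PC9OR libraries, and it fell by 2.34 (adjusted p = 0.00862). *IGFBP3*, a binding protein of insulin-like growth factors, fell by 1.85 (adjusted p = 0.00400), from 9.41 and 9.52 to 2.61 and 2.53 FPKM. *CCDC80*, a secreted matrix protein, fell by 1.74 (adjusted p = 0.00500), and *GADD45A*, a stress-induced growth arrest gene of 1367 bases, by 1.29 (adjusted p = 0.00780). With the length offsets 8 of the 15 fell and 2 rose, and the median was -0.60. *AXL*, a receptor tyrosine kinase, was the gene that rose, by 0.57 (adjusted p = 0.0491, and 0.00867 with the offsets), from 22.97 and 17.0 to 30.4 and 27.4 FPKM; it was named after its values were seen. *F3*, tissue factor, the most abundant of the list, had 153 and 143 FPKM in PC9 and 148 and 142 FPKM in PC9OR cells, with a log2 fold change of 0.0029 (SE 0.103, adjusted p = 0.984). Targets that fell, rose and did not pass the test thus stood side by side here, as among the 10 genes.

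Other factors act on the same targets. Of 9 tested genes of the SRF and MRTF axis, which couples actin to transcription, 3 fell and 2 rose (20.8% and 15.6% of all tested genes), and with the length offsets 4 fell and 0 rose. The coactivator genes *MRTFB* and *MRTFA* fell by 2.11 (adjusted p = 0.00699) and 1.49 (adjusted p = 0.0188), and *ACTB* fell by 1.14 (adjusted p = 0.0254), with PC9 replicates at 2538 and 1520 FPKM and PC9OR replicates at 962 and 840 FPKM. *TAGLN* rose by 1.83 (adjusted p = 0.0261) from under 1 FPKM, and *FHL2*, named after its values were seen, by 0.46 (adjusted p = 0.0364). With the offsets neither passed the test (adjusted p = 0.0548 and 0.390), and *TPM1*, an actin-binding tropomyosin also named after its values were seen, was called lower (-0.51, adjusted p = 0.0121). The abundant actin binder *CNN2* was at -0.10 (adjusted p = 0.664). Of the 7 AP-1 subunits, which bind beside TEAD at many enhancers, *FOSL1* and *FOSL2* fell by 2.13 (adjusted p = 0.0179) and 1.32 (adjusted p = 0.0111), and *JUNB* rose by 1.07 (adjusted p = 0.0150). *FOSL1* was at 38.7 and 17.8 FPKM in PC9 and 7.34 and 5.43 FPKM in PC9OR cells. The most abundant subunits, *FOS* (log2 fold change 0.44, adjusted p = 0.0607) and *JUN* (-0.29, adjusted p = 0.140), did not pass the test. The offsets left these counts at 2 of 7 lower and 1 higher. Of all tested genes 20.8% were lower and 15.6% higher without the offsets, and 20.9% and 17.1% with them.

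The libraries carried the RNA of an epithelial line. Of 8 epithelial markers 6 were tested, and *EPCAM* was between 139 and 148 FPKM in all 4 libraries. The keratins *KRT7*, *KRT8*, *KRT18* and *KRT19* rose, by 0.94 to 1.28 on the log2 scale, and the E-cadherin gene *CDH1* fell by 1.46 (adjusted p = 0.00814), from 69.5 and 49.5 to 22.0 and 20.1 FPKM. With and without the length offsets 4 of the 6 tested markers were called higher and 1 lower. Of all tested genes 15.6% were higher and 20.8% lower without the offsets, and 17.1% and 20.9% with them. The alveolar markers *NKX2-1* and *NAPSA* were at or below 0.17 FPKM in every library, so the lung origin named in the labels is not visible in them. Fibroblasts express *CCN1* and *CCN2* strongly, and their 6 markers summed to 0.26, 0.23, 0.20 and 0.22 FPKM in PC9 replicates 1 and 2 and PC9OR replicates 1 and 2, with 0 of 3 tested genes called. The most abundant of them was at 0.09 FPKM or less. Of 4 endothelial markers *CDH5* was at 6.08 and 4.10 FPKM in PC9 and 0.86 and 0.80 FPKM in PC9OR cells and fell by 2.57 (adjusted p = 0.00529), while *VWF* did not exceed 0.01 FPKM, *PECAM1* was at 0.39 FPKM in PC9 replicate 1 and at 0.07 or less in the others, and *KDR* was listed in no file. The 4 immune markers summed to at most 0.23 FPKM, with *PTPRC* at 0.02 FPKM or 0.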

How the data were processed

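PC9 and PC9OR cells were profiled by RNA sequencing with a stranded TruSeq kit on an Illumina HiSeq, and reads were filtered with SOAP by the authors. The submitters' processing notes name Bowtie2 2.2.5, RSEM 1.2.12 and GRCh37, without their roles. The authors deposited, for each library and Entrez gene, expected counts (estimated reads, not normalized) and FPKM values (scaled to length and depth), with the transcript length; a gene absent from a file was set to 0. The FPKM values were used for levels, the expected counts for tests. Symbols were found for 99.66% of genes.

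Expected counts were rounded and tested with edgeR 4.0.16 in R 4.3.3 (TMM, filterByExpr, quasi-likelihood test, no block, all 4 libraries); DEGseq, which the study names, was not used. A count of 3 corresponded to between 0.0932 and 0.129 CPM. Replicates differed by more than counting noise (chi-square over degrees of freedom of 65.5 in PC9 and 9.93 in PC9OR cells). With 2 libraries per line an exact permutation test of a single gene cannot go below p = 0.333, so none was run. Alternatives were DESeq2 1.42.0 (size factors and Wald test), library totals, limma 3.58.1 on log2(FPKM + 1) and log2(FPKM + 0.1), other count filters, each library left out, the replicate block, and length offsets fitted with mgcv 1.9.3 to genes with a mean of at least 20 counts. The main edgeR fit, the DESeq2 Wald test and edgeR with length offsets were run on simulated data, and the other fits were not. The simulated lines had the same spread between replicates, whereas the measured PC9 replicates differed more than those of PC9OR. The 10 genes, the lists and the alternatives were chosen with earlier results of these data known. Named from each list were up to 4 called genes with the largest change and the 2 most abundant; *STK3*, *TEAD2*, *TEAD3* and the remaining cell type markers were named outside this rule, after their values were seen, to complete their families or lists, and any other exception is marked in the text. *PTPN14* is in 2 lists and counted once in the wider pathway.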

Additional observations from a re-analysis of the deposited data

How the results depend on the processing

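The log2 fold changes of 9 of the 10 genes kept their sign under every alternative run; that of *TEAD4* turned to 0.0084 without a filter on low counts and ran from -0.088 to 0.093 with each library left out. The calls of *TEAD1* and *LATS2* held under every alternative fit. Those of *YAP1*, *WWTR1*, *CCN1* and *ANKRD1* were lost when either PC9OR library was left out, although their changes stayed at -0.64 or beyond, or at 1.16 or above, because the line then had a single library, assumed to vary like PC9. With each library left out, 0 to 2 of the 10 genes were called higher and 2 to 6 lower, 1 to 10 and 10 to 31 of the wider pathway, and 525 to 3932 and 1177 to 3929 of all tested genes; the low ends came without a PC9OR library (525 and 1177 without replicate 1, 527 and 1191 without replicate 2) and the high ends without PC9 replicate 2. Requiring more than 2-fold change in the main edgeR fit left 2 of the 10 genes lower, 1 and 11 of the wider pathway higher and lower, and 806 and 1523 of all tested genes. With an adjusted p under 0.001 as well, that fit left 0 in all 6 counts. Other edgeR settings were not counted at this threshold. With the replicate block *TEAD1* met both limits (log2 fold change -1.80, adjusted p = 0.000883). The wider pathway genes called higher numbered 3 with limma on log2(FPKM + 1), 3 on log2(FPKM + 0.1), 8 with length offsets and 9 with offsets and replicate block. The replicate block called 1 of the 10 genes higher and 5 lower, 5 and 23 of the wider pathway, and 2593 and 2946 of all tested genes. The numbers gave no evidence of pairing, since same-numbered deviations had a correlation of 0.063 across genes. *CCN2* had fewer than 10 reads in both PC9OR libraries and so no value under the filter of at least 10 counts in every library.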
